A study of Mus musculus with 15 samples.

Results

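Cxcl12, Cxcr4 and Ackr3 encode a chemokine ligand and the receptors that bind it, and their 3 rows were taken by symbol from every per-sample table, 3 of the 27803 genes listed across the series. The samples were single-cell transcriptomes (Drop-seq) of 15 C57BL/6 mice: 5 wild-type (WT) cerebella of genotype WT with no treatment, collected at postnatal day 7, and 10 cerebellar tumors of M-Smo mice, genotype Math1-Cre:SmoM2/EYFPloxP/loxP, collected at postnatal day 15. Of the tumors, 5 came from mice injected with vehicle and 5 from mice injected with vismodegib, an inhibitor of SMO, at 75 mg/kg once daily from day 12 to day 14. All 10 tumor-bearing mice carried the activated SmoM2 allele, which Math1-driven Cre switches on in the granule neuron lineage, so the vehicle group was no normal control. WT differed from the tumors in age, genotype, injection, the microfluidic device used (PDMS for WT, glass for tumors) and the cultured human cells mixed into the tumor runs only, whose barcodes were removed by species. These cannot be told apart.

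CXCL12 is a secreted chemokine made by the meninges and by blood vessel cells, and it attracts cells that carry the receptor CXCR4, which couples to inhibitory G proteins. In the early postnatal cerebellum, proliferating granule neuron progenitors (CGNPs) carry CXCR4 and stay in the outer layer beneath the meninges, and they leave it when they differentiate. ACKR3, also called CXCR7, binds the same ligand but signals through arrestins rather than G proteins and removes the ligand by taking it into the cell.

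On the GRCm38 annotation, Cxcl12 lies on chromosome 6 at 117168535 to 117181367 on the plus strand, Cxcr4 on chromosome 1 at 128588199 to 128592293 on the minus strand, and Ackr3 on chromosome 1 at 90203980 to 90216751 on the plus strand. No other annotated gene overlapped any of them. The annotation lists 3 coding transcripts with 3 distinct 3′ ends for Cxcl12 and 2 with 2 ends for each receptor. The assay counted molecules at the 3′ end by gene, so isoforms could not be told apart. The 120 bases before each RefSeq start (GRCm38.p6) are shown to compare the members' start regions. They are printed 5′ to 3′ on the gene's strand, and capitals mark every GC box (GGGCGG or its reverse complement CCGCCC) and every TATAAA or its reverse complement TTTATA, which overlap in Cxcr4.
Cxcl12, chr6:117168415-117168534, plus strand: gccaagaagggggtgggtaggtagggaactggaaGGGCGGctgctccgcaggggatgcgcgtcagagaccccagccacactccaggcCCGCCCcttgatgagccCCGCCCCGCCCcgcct
Cxcr4, chr1:128592300-128592419, minus strand: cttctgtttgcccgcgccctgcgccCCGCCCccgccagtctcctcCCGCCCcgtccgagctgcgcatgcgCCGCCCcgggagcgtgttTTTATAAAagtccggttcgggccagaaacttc
Ackr3, chr1:90203860-90203979, plus strand: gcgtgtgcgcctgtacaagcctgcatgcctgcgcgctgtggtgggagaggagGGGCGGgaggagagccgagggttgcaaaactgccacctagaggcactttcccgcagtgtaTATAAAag
Both strands of the 250 bases before each start were searched. TATAAA had 0 matches for Cxcl12, 2 for Cxcr4 and 1 for Ackr3, beside 12.4% of all 32851 windows of this length with a match. GGGCGG had 5, 3 and 1 matches, beside 32.7% of windows. The GLI motif GACCACCCA, the letters bound by the transcription factors at the end of the SHH pathway, had 0 matches in all 3 windows and was present in 0.225% of windows. GC content was 64.4%, 61.2% and 54.0%, against a median of 52.4% over all windows.

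Cells with at least 500 UMIs and 500 genes were kept and grouped by clustering in which the 3 members took no part, and classes were named from marker genes. There were 7224 WT cells (805 to 2086 an animal), 18293 vehicle cells (1648 to 8103) and 12429 vismodegib cells (834 to 4162), with a median of 1082.5 to 2597 UMIs a cell per animal. The CGNP-like class held 4951, 16737 and 10709 of these cells and was divided into 4 stages named after the nodes of the study: Node A-like (mitotic genes such as Mki67 and Top2a), Node B-like (progenitor and SHH-pathway genes such as Atoh1 and Gli1), Node C-like (early differentiation genes such as Cntn2 and Nhlh1) and Node D-like (late genes such as Grin2b and Rbfox3). In every stage and group at least 7 of the 8 to 10 stage markers were higher in the stage than outside it. The stages were named from these same markers, so this is no separate check of the names. The members gave few UMIs. Kept cells held 1517, 1562 and 2552 UMIs of Cxcl12 in WT, vehicle and vismodegib, 398, 2062 and 586 of Cxcr4, and 69, 82 and 95 of Ackr3. Levels are given in CPM, the UMIs of a gene per 1000000 UMIs of a class in an animal, with the animal as the replicate. Levels were not compared between genes.

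Cxcl12 was concentrated in vascular fibroblast-like cells, the collagen-producing cells of meninges and vessel walls. In WT their Cxcl12 level was 3079, 3591, 2763, 2676 and 3577 CPM in the 5 animals (3137 ± 435, SD, n = 5), from 155 cells. In vehicle it was 1691, 4275, 1818, 3223 and 2530.0 CPM (2707 ± 1069.7, 101 cells), and in vismodegib 3355, 2768, 3129.6, 2622 and 3032 CPM (2981 ± 291, 132 cells). The 3 groups overlapped. Endothelial-like cells, identified by Cldn5 and Pecam1, came next in the tumors but rested on 5 to 21 cells an animal. Their Cxcl12 level was 91.4, 1539.8, 261, 0 and 576.5 CPM in vehicle and 1065, 576, 249, 965 and 393 CPM in vismodegib. In WT it was 404, 94.6, 0, 22.1 and 0 CPM. The SD exceeded the mean in WT (104 ± 172 CPM) and vehicle (494 ± 625 CPM), and the groups overlapped.

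Among the neural classes, Cxcl12 was highest in differentiating CGNP-like cells. In the 10 tumors the level was 94.6 ± 21.9 CPM in Node D-like and 71.9 ± 21.8 CPM in Node C-like cells, and 55.2 ± 31.1 CPM in the neuron-like class (n = 10 each). Node A-like cells had 11.3 ± 5.49 CPM and Node B-like cells 10.8 ± 4.71 CPM. Oligodendrocyte-like cells had 6.01 ± 6.75 CPM (n = 10) and astrocyte-like cells 2.59 ± 5.67 CPM (n = 9), so the spreads of Node A-like, Node B-like and oligodendrocyte-like levels overlapped. The neuron-like level was split between clusters, since over pooled cells a cluster led by Fkbp1b and Nefl held 103 CPM in vehicle and 84.4 CPM in vismodegib (386 and 375 cells), and a cluster led by Gabra6 and Cbln3 held 0 and 26.7 CPM (89 and 230 cells). The Gabra6 cluster scored higher on Node D-like markers than on neuron markers (mean log2 fold 3.09 against 2.34). The Fkbp1b cluster scored higher on Node C-like markers (0.87 against 0.78). The Node C-like and Node D-like levels above leave both clusters out, so low Cxcl12 in the Gabra6 cluster does not enter them. In the classes found only in WT, Cxcl12 reached 15.1 ± 6.68 CPM in GABAergic interneuron-like and 14.8 ± 10.3 CPM in GABAergic progenitor-like cells (n = 5 each). Unipolar brush cell-like cells had 18.2 ± 28.2 CPM from 4 UMIs in all, and Purkinje-like cells 3.92 ± 8.77 CPM from 1 UMI (n = 5 each).

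**Figure D1:**
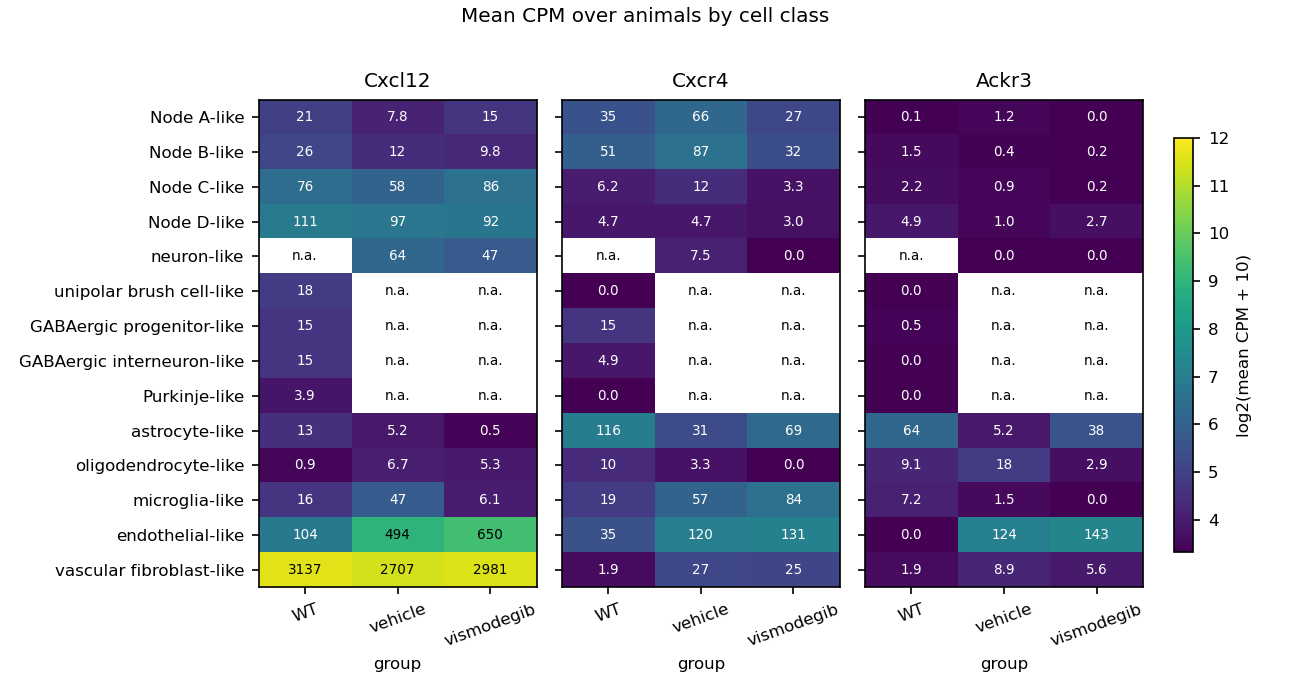
Mean level of Cxcl12, Cxcr4 and Ackr3 over animals (the number in each box, CPM) in each cell class (rows) and group (columns WT, vehicle and vismodegib), colored by log2 of the mean plus 10 CPM, with n.a. where the class was not found. Cxcl12 stands out in vascular fibroblast-like cells (2707 to 3137 CPM), whereas Cxcr4 is spread over Node A-like, Node B-like, astrocyte-like, microglia-like and endothelial-like cells.

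Cxcr4 had the opposite arrangement inside the CGNP-like class and was also present in glial, immune and vascular classes. In the tumors it averaged 125 ± 118 CPM in endothelial-like cells (n = 10), 70.7 ± 38.2 CPM in microglia-like cells (n = 10), 59.6 ± 39.8 CPM in Node B-like cells, 52.3 ± 31.2 CPM in astrocyte-like cells (n = 9) and 46.5 ± 28.4 CPM in Node A-like cells. The endothelial-like values ran from 0 to 336 CPM over 118 cells, and the levels of the other 4 lay within each other's spread. Node C-like cells had 7.68 ± 7.64 CPM and Node D-like cells 3.86 ± 3.26 CPM. In WT the highest level was in astrocyte-like cells, with 132, 113, 49.5, 117 and 167 CPM (116 ± 42.7, n = 5), followed by Node B-like cells with 51.3 ± 8.31 CPM. Neuron-like cells of vismodegib tumors held 0 Cxcr4 UMIs in 605 cells, which allows up to 3.78 CPM at 3 counts.

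Along the CGNP-like stages, Cxcl12 rose and Cxcr4 fell at the same step, from Node B-like to Node C-like, in all 15 animals. In the 10 tumors Cxcl12 rose by 61.0 CPM (10 of 10 tumors higher, 2-sided exact sign permutation test, p = 0.00195, adjusted p = 0.00879 over 9 comparisons). Over the same step Cxcr4 fell by 52.0 CPM (10 of 10 tumors lower, the same exact p = 0.00195, adjusted p = 0.00879), and 0.00195 is the smallest p that 10 animals allow. From Node A-like to Node B-like cells Cxcr4 rose by 13.2 CPM (8 of 10 tumors, exact permutation p = 0.0117, adjusted p = 0.0352) and Cxcl12 differed by -0.489 CPM (4 higher and 6 lower, adjusted exact p = 0.857). From Node C-like to Node D-like cells Cxcl12 was 22.7 CPM higher (8 of 10 tumors, adjusted exact p = 0.0571) and Cxcr4 differed by -3.82 CPM (adjusted exact p = 0.401), both without passing the threshold. The Cxcr4 step from Node A-like to Node B-like cells did not pass when any of 7 tumors was left out (10.7 to 14 CPM, adjusted exact permutation p = 0.0615 to 0.0703), these being vehicle 1, 2, 3 and 5 and vismodegib 1, 2 and 3. The step of Cxcl12 into Node D-like cells did pass without vismodegib 4 (26.4 CPM, adjusted exact p = 0.0264) or vismodegib 5 (26.1 CPM, adjusted exact p = 0.0439).

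The 5 WT cerebella showed the same arrangement. Cxcl12 in WT was 35.8, 33.3, 15.3, 24.8 and 18.6 CPM in Node B-like cells and 78.7, 84.8, 72.7, 83.8 and 58.8 CPM in Node C-like cells, with no overlap. Cxcr4 was 50.9, 41.6, 46.0, 54.5 and 63.3 CPM in Node B-like and between 3.03 and 8.77 CPM in Node C-like cells of WT. Each direction held in 5 of 5 animals, where the smallest exact permutation p is 0.0625. Ackr3 stayed at 0 to 12.2 CPM in every stage and every animal, and none of its steps passed in the tumors.

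**Figure D2:**
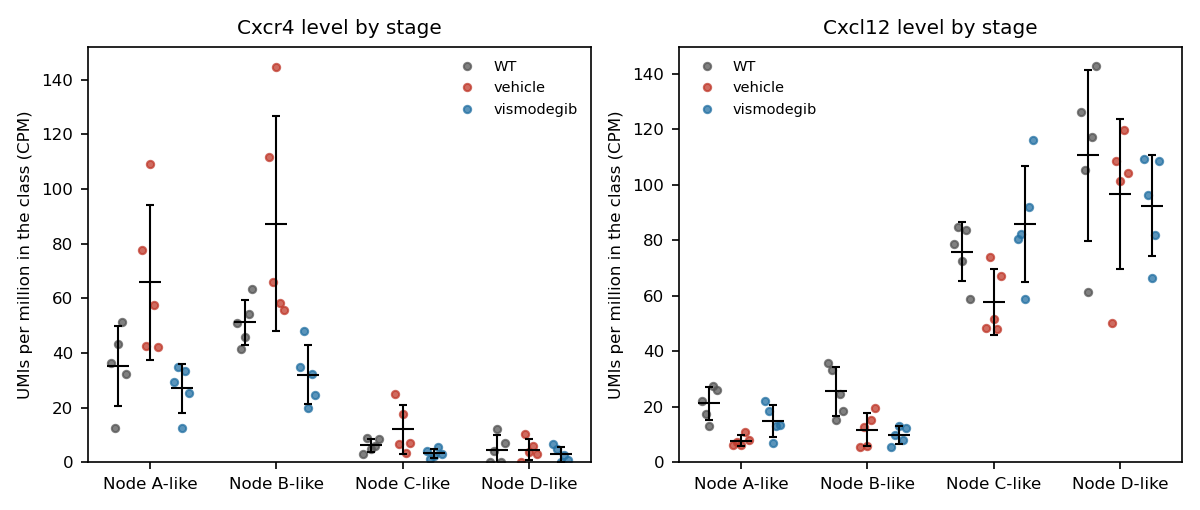
Level of Cxcr4 (left) and Cxcl12 (right) in CPM in the 4 CGNP-like stages, from mitotic Node A-like to late Node D-like, with 1 point for each animal, a horizontal line at the group mean and bars of 1 SD (5 animals a group). Cxcl12 climbed between Node B-like and Node C-like cells, where Cxcr4 dropped, and the vehicle points for Cxcr4 lay above the vismodegib points in Node A-like and Node B-like cells.

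Vismodegib lowered Cxcr4 in the CGNP-like class. Cxcr4 was 87.5, 46.2, 103, 44.9 and 43.8 CPM in the 5 vehicle tumors and 22.0, 27.3, 10.2, 16.2 and 11.7 CPM in the 5 vismodegib tumors. The lowest vehicle tumor lay above the highest vismodegib tumor, and vehicle 1 and 3 stood above the other vehicle tumors. The log2 fold change was -1.89 ± 0.31 (SE, edgeR quasi-likelihood test with Benjamini-Hochberg adjustment, adjusted p = 0.00141), and 12.9% of the 12413 genes tested in this class were called in either direction. The share of cells with a Cxcr4 UMI, each cell thinned to 500 UMIs, was 2.84% ± 1.26 in vehicle and 0.653% ± 0.353 in vismodegib (n = 5 each, 2-sided exact permutation test, p = 0.00794, adjusted p = 0.0423 over 32 comparisons). Unthinned, 11% ± 4.14 of vehicle and 3.00% ± 0.433 of vismodegib cells held a Cxcr4 UMI (n = 5 each). This difference had the same direction but did not pass after adjustment (adjusted exact permutation p = 0.127). In oligodendrocyte-like cells, where the gene was near absent, the thinned share was 0.134% in vehicle and 0 in vismodegib.

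Cxcr4 was also called lower within both early stages. In Node B-like cells Cxcr4 was 112, 66.1, 145, 58.2 and 55.7 CPM in vehicle and 35.0, 48.1, 19.9, 32.4 and 24.7 CPM in vismodegib, with no overlap (log2 fold change -1.39 ± 0.29, edgeR adjusted p = 0.0145). In Node A-like cells it was 77.7, 42.5, 109, 57.5 and 42.2 CPM in vehicle and 29.3, 35.1, 12.6, 33.3 and 25.2 CPM in vismodegib, again with no overlap (-1.23 ± 0.29, edgeR adjusted p = 0.0366). The share of all tested genes called was 3.05% for Node B-like cells and 2.34% for Node A-like cells. The thinned share of cells with a Cxcr4 UMI fell from 3.96% to 1.4% in Node B-like and from 3.01% to 1.24% in Node A-like cells (exact permutation p = 0.00794, adjusted p = 0.0423 for each). Both tests share cells with the whole-class test and are not results separate from it. Unthinned, these shares were also lower in vismodegib, at 13.5% and 5.87% in Node B-like and 16.7% and 8.53% in Node A-like cells. They did not pass after adjustment (adjusted exact p = 0.127 for Node B-like cells and 0.254 for Node A-like cells). The thinned shares of vehicle and vismodegib tumors did not overlap in the whole class or in either stage. With each tumor left out in turn the difference stayed between -2.48 and -1.80 percentage points in the whole class, -2.03 and -1.30 in Node A-like and -2.97 and -1.91 in Node B-like cells. The groups did not overlap in any of these leave-outs, and the unadjusted exact permutation p was 0.00794 to 0.0317. After adjustment over all shares tested, the p under 0.05 was kept without vehicle 3 and lost without any other tumor (adjusted exact permutation p = 0.0508 to 0.145), in designs whose smallest p is close to the threshold once adjusted. The Node A-like call was lost without vehicle 1, 3 or 4 or vismodegib 1, 3, 4 or 5 (log2 fold change -1.35 to -0.957, edgeR adjusted p = 0.0524 to 0.0918) and with the replicate number as a block (-1.14, edgeR adjusted p = 0.0508), whereas the Node B-like and whole-class edgeR calls held without any single tumor.

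Both stages held several clusters, whose shares of cells differed between the groups. In Node A-like cells a cluster led by Esco2 and Nusap1 held 2522 of 3926 vehicle and 631 of 1643 vismodegib cells, with Cxcr4 at 78.6 and 43.5 CPM (mean of 5 tumors). A cluster led by E2f2 and Rrm2 held 581 and 685 cells at 34.9 and 17.5 CPM, and a cluster led by Ccnb1 and Ube2c 823 and 327 cells at 65.7 and 13.1 CPM. In Node B-like cells a cluster led by Hes1 and Ung held 4907 of 9005 vehicle and 807 of 2493 vismodegib cells, with Cxcr4 at 110 and 36.4 CPM. Mean Cxcr4 was thus lower in vismodegib in each of these clusters. With the clusters of a stage averaged at their vehicle UMI shares, chosen after seeing the data, Cxcr4 in Node A-like cells was 67.5 ± 31.7 CPM in vehicle (40.5 to 117) and 31.0 ± 8.79 CPM in vismodegib (20.8 to 40.3), so the groups lay close but did not overlap (n = 5 each, 2-sided exact permutation p = 0.00794). For Node B-like cells the same averaging gave 86.6 ± 40.8 CPM in vehicle (52.9 to 148) and 33.3 ± 10.7 CPM in vismodegib (20.9 to 50.4, exact permutation p = 0.00794).

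In the later stages Cxcr4 was low in both groups. Node C-like cells had 25, 6.81, 17.8, 3.51 and 7.25 CPM in vehicle and 4.02, 1.42, 2.45, 5.49 and 3.11 CPM in vismodegib, and the gene did not pass the count filter there or in Node D-like cells. The log2 ratio of Cxcr4 in Node A-like over Node C-like cells (pseudocount 10 CPM) was 1.80 ± 0.40 in vehicle and 1.45 ± 0.40 in vismodegib, a difference of -0.350 (n = 5 each, 2-sided exact permutation p = 0.183). With a pseudocount of 1 CPM the difference was 0.167 (exact permutation p = 0.706), so its sign depended on the pseudocount.

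The mix of stages also differed, since Node D-like cells made up 33.2% of vismodegib and 4.24% of vehicle cells. Cxcr4 was therefore averaged over the 4 stages with fixed weights, the mean UMI shares of the vehicle tumors (34.3% Node A-like, 46.4% Node B-like, 15.1% Node C-like and 4.19% Node D-like). At this fixed mix Cxcr4 was 82.2, 46.7, 107, 47.5 and 41.5 CPM in vehicle and 27.2, 34.7, 13.9, 27.4 and 20.6 CPM in vismodegib. The groups still did not overlap, and the vismodegib mean of 24.8 ± 7.85 CPM was 0.381 of the vehicle mean of 65.1 ± 28.7 CPM (n = 5 each, 2-sided exact permutation p = 0.00794, the smallest that 5 against 5 allow). With the weights of the vismodegib tumors the ratio was 0.389 (exact permutation p = 0.00794). The same averaging gave Cxcl12 at 21.0 ± 5.17 CPM in vehicle and 26.5 ± 4.40 CPM in vismodegib, a ratio of 1.27 (exact permutation p = 0.119).

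**Figure D3:**
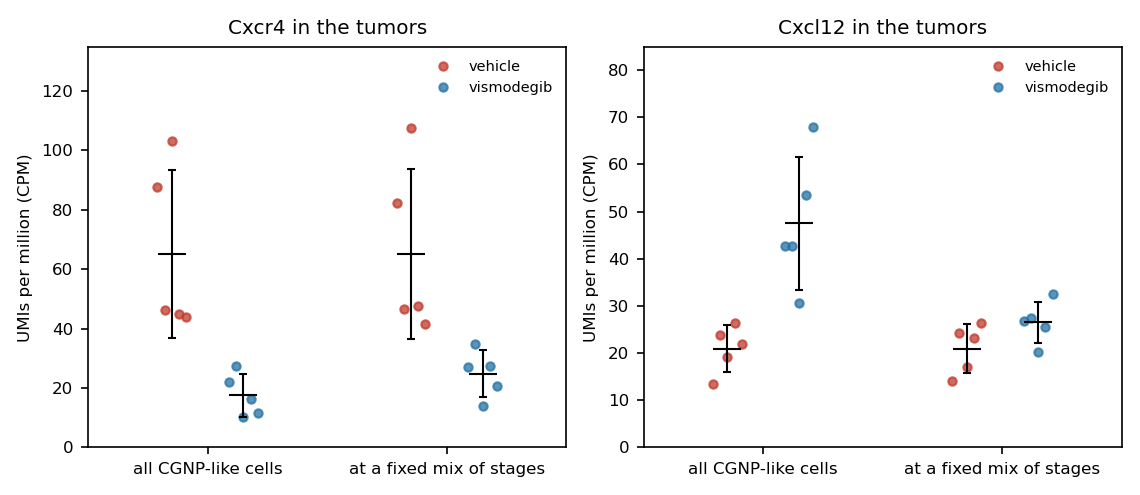
Cxcr4 (left) and Cxcl12 (right) in CPM in each of the 10 tumors, over all CGNP-like cells and at a fixed mix of the 4 stages, with 1 point for each tumor, a horizontal line at the group mean and bars of 1 SD (5 tumors a group). Cxcr4 kept a gap between vehicle (41.5 to 107 CPM) and vismodegib (13.9 to 34.7 CPM) at the fixed mix, while the Cxcl12 groups overlapped there.

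Cxcl12 over all CGNP-like cells moved the other way. It was 13.4, 23.8, 19.3, 26.4 and 21.9 CPM in vehicle and 42.6, 42.6, 30.5, 53.6 and 68.0 CPM in vismodegib, with no overlap (log2 fold change 1.19 ± 0.24, edgeR adjusted p = 0.00506). The thinned share of cells with a Cxcl12 UMI rose from 1.26% ± 0.327 to 2.69% ± 0.797 (n = 5 each, exact permutation p = 0.00794, adjusted p = 0.0423). The groups did not overlap, the highest vehicle tumor being at 1.62% and the lowest vismodegib tumor at 1.73%. The difference stayed positive with each tumor left out in turn, at 1.15 to 1.68 percentage points, with no overlap and an unadjusted exact permutation p of 0.00794 to 0.0159. The adjusted call was lost without any 1 of the 10 (adjusted exact permutation p = 0.0714 to 0.145) and unthinned (adjusted exact p = 0.190). Within stages no Cxcl12 change passed. The log2 fold change was 0.85 in Node A-like (edgeR adjusted p = 0.226), -0.31 in Node B-like (adjusted p = 0.772), 0.59 ± 0.20 in Node C-like (adjusted p = 0.312) and -0.11 in Node D-like cells (adjusted p = 0.998). In Node C-like cells the values were 48.3, 74, 51.7, 48.0 and 67.0 CPM in vehicle and 80.4, 82.2, 58.7, 92.1 and 116 CPM in vismodegib, so 4 of 5 vismodegib tumors lay above every vehicle tumor. The clusters of this stage differed in Cxcl12. One led by Pdzrn3 and Chrna3 held 1475 of 3031 vehicle and 614 of 2450 vismodegib cells, with Cxcl12 at 23.2 and 40.6 CPM (mean of 5 tumors), and one led by Pnoc and Cntn2 held 1281 and 1553 cells at 79.7 and 93 CPM. At the vehicle UMI shares of these clusters, chosen after seeing the data, Cxcl12 was 57.6 ± 16.5 CPM in vehicle and 72 ± 17.2 CPM in vismodegib (n = 5 each, exact permutation p = 0.214). The share of all tested genes called was 0.26% among Node C-like cells and 0.0495% among Node D-like cells.

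Cxcl12 passed the test of treatment in neither vascular class. The log2 fold change was 0.21 in vascular fibroblast-like cells (edgeR adjusted p = 0.747, 1.34% of genes called) and 0.32 ± 0.58 in endothelial-like cells (adjusted p = 0.857). The endothelial-like value rested on few cells and was 0.07 without vehicle 4 and 1.18 without vehicle 2. In endothelial-like cells 0.0% of the 440 genes tested were called by edgeR, with 35 at an unadjusted p under 0.05 and 3 genes called by DESeq2.

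The vehicle tumors were then set against WT, to compare tumor with normal cerebellum under the differences of age and device given above. In the CGNP-like class Cxcr4 was 27.7, 17.8, 34.6, 34.4 and 31.6 CPM in WT, below all 5 vehicle tumors (log2 fold change 1.06 ± 0.27, edgeR adjusted p = 0.00536). Cxcl12 was 48.2, 54.9, 29.8, 52.2 and 46.0 CPM in WT, above all 5 vehicle tumors (-1.21 ± 0.21, adjusted p = 0.00031). In this comparison 44.5% of the 12531 genes tested were called, so a call was common.

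Within stages, Cxcl12 was lower in vehicle than in WT in Node A-like cells, where WT had 22.2, 17.6, 13, 27.6 and 26.0 CPM and vehicle 6.39, 7.29, 6.18, 10.9 and 8.11 CPM with no overlap (log2 fold change -1.60, edgeR adjusted p = 0.000397, 35.2% of genes called). It was also lower in Node B-like cells (-1.22, adjusted p = 0.0169, 36.5% of genes called), although not without WT 1 (-1.07, adjusted p = 0.0581), and vehicle had 5.47, 12.8, 6.00, 15.3 and 19.6 CPM there. In Node C-like cells the difference was -0.54 (adjusted p = 0.0476, 30.7% of genes called) and did not pass when any of 8 animals was left out, which were WT 1 to 4 and vehicle 1, 3, 4 and 5 (-0.60 to -0.46, adjusted p = 0.0527 to 0.120). In Node D-like cells it was -0.29 (adjusted p = 0.415, 25.8% of genes called). WT and tumor cells were clustered separately, and clusters differed in Cxcl12 (means of 5 animals). Vehicle Node A-like clusters held 5.10, 4.41 and 20.9 CPM, the last led by E2f2 and Rrm2, beside 21.3 CPM in a single WT cluster. Node B-like clusters held 13.6, 14.2 and 6.61 CPM in vehicle and 18.6 and 41.6 CPM in WT. Node C-like clusters held 79.7, 23.2 and 102 CPM in vehicle and 80.8 and 51.1 CPM in WT. The part of this mix in the differences was not tested. Cxcr4 did not pass within Node A-like (0.72, adjusted p = 0.0836) or Node B-like cells (0.57, adjusted p = 0.0994), where WT and vehicle values overlapped. It did pass in Node A-like cells without WT 4 (0.94, adjusted p = 0.0495), vehicle 2 (0.86, adjusted p = 0.0405) or vehicle 5 (0.87, adjusted p = 0.0383), and in Node B-like cells without vehicle 5 (0.72, adjusted p = 0.0379).

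RNA from fibroblasts that had reached other droplets was examined because these cells held so much Cxcl12. Vascular fibroblast-like cells held 11.2, 9.26 and 9.17 Cxcl12 UMIs for each 100 UMIs of the 8 fibroblast markers (Col1a1, Dcn, Lum and others) in WT, vehicle and vismodegib. Node D-like cells held 95.7, 735 and 226, and Node C-like cells 93.8, 270 and 204. At the fibroblasts' own ratio the fibroblast markers seen in vehicle Node D-like cells, where Lum, Ogn and Slc6a13 were at 0, would carry 1.57 of the 125 Cxcl12 UMIs there. For this stage the ratio gave 15.7 of 135 in WT and 30.4 of 749 in vismodegib. For Node C-like cells it gave 19.6 of 165, 10.3 of 300 and 17.3 of 385 in WT, vehicle and vismodegib. The same reckoning gave 15.6 of 80 Cxcl12 UMIs in WT, 36.9 of 102 in vehicle and 30 of 93 in vismodegib for Node A-like cells. For Node B-like cells it gave 20.5 of 64, 51.0 of 230 and 32.7 of 50. The largest of the fibroblast markers in both stages was Igf2, with 37.9% to 64.5% of the marker UMIs in Node A-like and 38.6% to 75.6% in Node B-like cells. The summed fibroblast markers in Node A-like cells ranged over 33.3 to 60.6 CPM in WT, 12.4 to 49.0 in vehicle and 35.4 to 91 in vismodegib, and 7 of the 8 were lower in vehicle than in WT. In Node B-like cells 8 of 8 were lower in vehicle than in WT. Against vehicle, 7 of 8 were higher in vismodegib in Node A-like cells and 5 of 8 in Node B-like cells. The summed markers in Node C-like cells were 9.99 to 30.2 CPM in vehicle and 30.5 to 103 CPM in vismodegib. In Node D-like cells they were 3.07 to 25.2 and 29.7 to 71.1 CPM, so the groups overlapped in neither stage. At the endothelial-like cells' own ratio to the 10 endothelial markers, Node A-like cells gave 1.65 of 80 UMIs in WT, 49.0 of 102 in vehicle and 10.2 of 93 in vismodegib. Node B-like cells gave 1.55 of 64, 76.9 of 230 and 10.2 of 50. Ramp2 made up 69.5% and 67.6% of these marker UMIs in vehicle Node A-like and Node B-like cells. The part of either list in the Cxcl12 differences between groups was not tested. This includes the lower Cxcl12 of vehicle than WT in Node A-like and Node B-like cells.

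For Cxcr4, the same ratio in Node A-like cells of vehicle was 13 Cxcr4 UMIs for each 100 astrocyte-marker UMIs, against 0.159 in the astrocyte-like cells of those tumors. The summed astrocyte markers in Node A-like cells were higher in vehicle (269 to 577 CPM) than in vismodegib (143 to 209 CPM), with 4 of 8 markers higher and 4 lower in vismodegib. Sparcl1 alone made up 48.3% of these marker UMIs in Node A-like cells of vehicle and 25.6% in those of vismodegib. The summed endothelial markers were also higher in vehicle there (41.9 to 124 CPM against 32.9 to 52.9 CPM), but 8 of the 10 were higher and 2 lower in vismodegib, and Ramp2 alone made up 69.5% of these marker UMIs in vehicle. In Node B-like cells the summed astrocyte markers were 321 to 567 CPM in vehicle and 146 to 279 CPM in vismodegib (3 of 8 higher and 5 lower in vismodegib). Sparcl1 made up 37.7% of these marker UMIs in Node B-like cells of vehicle and 24.1% in those of vismodegib. The summed endothelial markers there were 78.1 to 159 CPM and 51.2 to 71.1 CPM (6 of 10 higher and 4 lower), and Ramp2 made up 67.6% of them in vehicle. Neither list overlapped between the groups in this stage. The part of these lists in the result was not tested. Microglia markers moved against Cxcr4, with 10 of 10 higher in vismodegib than in vehicle in Node A-like cells (8.24 to 26.6 CPM in vehicle and 17.5 to 49.2 CPM in vismodegib).

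The share of each animal's Cxcl12 UMIs that came from each class followed both the levels and the numbers of cells captured. Vascular fibroblast-like cells gave 68.3% ± 8.08 of Cxcl12 UMIs in WT, 38.3% ± 7.06 in vehicle and 42.3% ± 4.54 in vismodegib (n = 5 each). The fall from WT to vehicle passed (2-sided exact permutation p = 0.00794, adjusted p = 0.0265 over 10 classes), as did the rises in Node C-like cells from 10.4% to 22.6% and in Node B-like cells from 4.18% to 12.8% (the same p and adjusted p by the exact permutation test). An animal's shares sum to a fixed total, so these 3 differences are linked and not separate results. Vascular fibroblast-like cells were 1.78% to 3.28% of WT and 0.306% to 0.753% of vehicle cells. Mean Cxcl12 levels in Node B-like and Node C-like cells were lower in vehicle than in WT, as given above. Without WT 3, 4 or 5 all 3 differences had adjusted exact p-values of 0.0529 to 0.0794, at -30.8 to -27.0 percentage points in fibroblast-like, 11.4 to 12.9 in Node C-like and 8.16 to 8.71 in Node B-like cells. All 4 CGNP-like stages together gave 27.7% in WT, 52.7% in vehicle and 49.4% in vismodegib. Between vehicle and vismodegib no class passed, with the largest shifts in Node D-like cells from 10.7% to 24.7% (exact permutation p = 0.0317, adjusted p = 0.175) and in Node B-like cells from 12.8% to 2.91% (exact permutation p = 0.00794, adjusted p = 0.0873). These shares describe the cells captured after papain dissociation, not the tissue.

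Cxcr4 UMIs came mainly from Node A-like and Node B-like cells, which together gave 92.7% ± 0.962 in vehicle, 63.7% ± 10.3 in vismodegib and 63.3% ± 6.56 in WT (n = 5 each). Astrocyte-like cells gave 23.3% in WT, 0.916% in vehicle and 11.5% in vismodegib. Microglia-like cells gave 1.10% in vehicle and 13.2% in vismodegib. These shares are given as a description, without a test result.

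**Figure D4:**
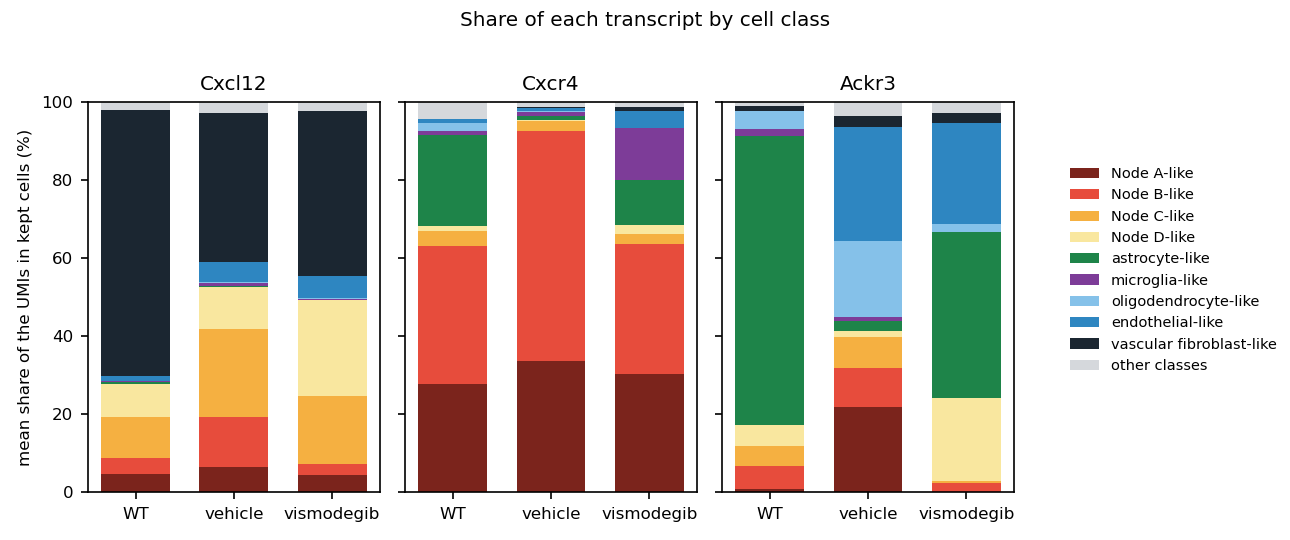
Share of the UMIs of Cxcl12, Cxcr4 and Ackr3 in kept cells that came from each cell class (percent, mean over the 5 animals of a group), as stacked bars for WT, vehicle and vismodegib. Vascular fibroblast-like cells held 68.3% of Cxcl12 in WT and 38.3% and 42.3% in the tumors, and Node A-like and Node B-like cells together held 92.7% of Cxcr4 in vehicle.

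Astrocyte-like cells, marked by Aqp4 and Aldoc, held Cxcr4 and Ackr3 in WT, with lower mean levels of both in the vehicle tumors. Cxcr4 was 0, 17.3, 64.7 and 41.5 CPM in the 4 vehicle tumors with at least 5 such cells, since vehicle 3 had 3 such cells and was left out. In vehicle 1, at 0, 3 UMIs would be 196 CPM. The log2 fold change from WT to vehicle was -1.40 ± 0.43 (edgeR adjusted p = 0.0153, 27.2% of 2338 genes called) and the call was lost without vehicle 5 (-1.38, adjusted p = 0.108). The gene passed the count filter in this comparison through WT, where it was high, with 92 UMIs in WT and 19 in vehicle. In vismodegib the values were 58.1, 94.3, 52.2, 94.2 and 48.1 CPM. Cxcr4 did not pass the count filter between the treatments. The thinned share of astrocyte-like cells with a Cxcr4 UMI was 1.21% ± 1.05 in vehicle (n = 4) and 3.68% ± 0.794 in vismodegib (n = 5, exact permutation p = 0.00794, adjusted p = 0.0423), but the unthinned share did not pass (adjusted exact p = 0.660). With each tumor left out in turn the thinned difference was 2.07 to 2.79 percentage points, with no overlap. The adjusted call was lost without any 1 of the 9 tumors in this comparison (unadjusted exact permutation p = 0.0179 to 0.0286, adjusted 0.0714 to 0.145).

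The highest mean level of Ackr3 was in astrocyte-like cells in WT (63.5 CPM) and in endothelial-like cells in vehicle (124 CPM) and vismodegib (143 CPM). In vehicle, oligodendrocyte-like cells (18.5 CPM) and vascular fibroblast-like cells (8.87 CPM, 1 UMI) were above astrocyte-like cells (5.19 CPM). Astrocyte-like cells gave 2.67% of Ackr3 UMIs in vehicle and 42.7% in vismodegib (mean of 5 animals), endothelial-like cells 29.2% and 26%, and the 4 CGNP-like stages 41.3% and 24.2%. In WT astrocyte-like cells it was 56.1, 93.9, 49.5, 70.3 and 47.7 CPM (63.5 ± 19.2, n = 5). In vehicle it was at 0 in 3 of 4 tumors and at 20.8 CPM in vehicle 5, and in vismodegib it was 81.3, 23.6, 17.4, 32.7 and 35.5 CPM. The 3 vehicle tumors at 0 were shallow in this class, where 3 UMIs would be 196, 51.9 and 32.4 CPM in vehicle 1, 2 and 4, so vehicle 1 and 2 were not shown to lie below WT. All 4 vehicle tumors together held 6 Ackr3 UMIs among 454920 UMIs of the class, and the 5 WT animals 49 among 785044. The gene did not pass the count filter in any class, so these differences have no main test. With no filter beyond 1 count, edgeR gave a log2 fold change from WT to vehicle of -2.27 ± 0.63 (adjusted p = 0.00964), with 5.55% of 17606 genes called. The thinned share of astrocyte-like cells with an Ackr3 UMI was 2.97% ± 0.278 in WT (n = 5) and 0.175% ± 0.351 in vehicle (n = 4, exact permutation p = 0.00794, adjusted p = 0.0595 over 30 comparisons).

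In endothelial-like cells Ackr3 was 137, 171, 149, 0 and 165 CPM in vehicle and 355, 192, 0, 48.3 and 122 CPM in vismodegib. At 3 UMIs the tumors at 0 allow up to 199 CPM in vehicle 4 and 82.9 CPM in vismodegib 3. No Ackr3 UMI was found in the 58 endothelial-like cells of WT, which allows up to 19.6 CPM at 3 counts over the group. Without the filter Ackr3 was called there against WT (edgeR adjusted p = 0.00326), as was Cxcl12 (1.82 ± 0.46, edgeR adjusted p = 0.0104), with 1.05% of 13541 genes called. Both genes had failed the count filter in this comparison. Ackr3 entered the fit only through vehicle, where it was high, since WT was at 0. The Cxcl12 values overlapped, at 0 to 1540 CPM in vehicle and 0 to 404 CPM in WT. No animal was left out of this fit in turn. In oligodendrocyte-like cells Ackr3 was 16.1, 39.3, 12.3, 6.80 and 17.8 CPM in vehicle and 0, 0, 0, 10.9 and 3.6 CPM in vismodegib. At 3 UMIs the 3 vismodegib tumors at 0 allow up to 47.1, 88.2 and 63.8 CPM, above every vehicle value, so at this depth their levels were not shown to be lower. The thinned share there was 1.03% ± 0.499 in vehicle and 0.110% ± 0.156 in vismodegib (n = 5 each, exact permutation p = 0.00794, adjusted p = 0.0423), which did not pass unthinned (adjusted exact p = 0.254). With each tumor left out in turn the thinned difference was -1.09 to -0.774 percentage points, with no overlap. The adjusted call was lost without any tumor but vehicle 3 (unadjusted exact permutation p = 0.00794 to 0.0159, adjusted 0.0508 to 0.145). Of the 16 vehicle UMIs, 12 came from a cluster of 268 cells led by Cspg5, Olig1 and Cspg4, genes of oligodendrocyte precursors, which held only 46 cells in vismodegib.

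Vascular fibroblast-like cells held clusters that differed in Cxcl12, described here without a test. Over pooled cells, a cluster led by Col3a1 and Lum held Cxcl12 at 3171 CPM in vehicle and 3235 CPM in vismodegib (69 and 36 cells). A cluster led by Ptgds and Slc6a13 held 1991 CPM in vehicle and 2918 CPM in vismodegib (16 and 87 cells), and a cluster led by Ptgds and Tbx18 held 1191 and 1125 CPM (16 and 9 cells). Only 1 vehicle tumor had at least 5 cells of the Slc6a13 cluster, at 2770 CPM, beside 5 vismodegib tumors at 3158 ± 565 CPM. For the Tbx18 cluster this number was 1 vehicle and 0 vismodegib tumors, so these pooled values are not compared between treatments. Most vehicle cells of the class, 69 of 101, were therefore in the first cluster and most vismodegib cells, 87 of 132, in the second.

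The other genes of the pathway were taken from a list of 38 ligand-side, G protein, desensitisation and effector genes, which was drawn up with earlier results of these data known, so its shares beside those of all genes are a description. In CGNP-like cells of vismodegib against vehicle, 34 were tested, 7 were higher and 2 lower, 26.5% beside the 12.9% of all genes called in this class, with a median log2 fold change of 0.22 beside 0.00 for all genes. Gnai2, an inhibitory G protein subunit through which CXCR4 signals, fell from 347 ± 87.0 to 128 ± 22.6 CPM (log2 fold change -1.43 ± 0.17, edgeR adjusted p = 0.000226) and was also lower within Node A-like (-1.40, adjusted p = 0.000956) and Node B-like cells (-0.85, adjusted p = 0.00509). Gnao1, a related subunit abundant in neurons, rose from 209 to 356 CPM (0.78, adjusted p = 0.00695). Among the 9 desensitisation genes tested, only Grk3 (listed as Adrbk2), a receptor kinase, passed, rising from 63.4 to 99.7 CPM (0.68, adjusted p = 0.0397).

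Among 14 effectors, 5 were higher and 1 lower, 42.9% beside the same 12.9%. Adcy1, an adenylyl cyclase, rose from 16.2 ± 8.39 to 79.1 ± 10.8 CPM (2.34 ± 0.31, adjusted p = 0.000384) and was also higher within Node A-like cells (1.88, adjusted p = 0.0278). Pak1, a kinase downstream of RAC and CDC42, rose from 32.9 to 74.9 CPM (1.21, adjusted p = 0.000764), and Elmo1, a partner in RAC activation, rose from 87.5 to 190 CPM (adjusted p = 0.000499). The rises of Gnao1, Grk3, Pak1 and Elmo1 were over the whole class, in which the share of Node D-like cells differed as given above. Within the 4 stages their log2 fold changes were -0.49 to 0.23 and none passed the edgeR test (adjusted p = 0.418 to 0.998). None of the 3 ligand-side genes tested passed.

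Against WT, 7 of the 34 tested pathway genes were higher and 9 lower in CGNP-like cells of vehicle tumors, 47.1% beside the 44.5% of all genes. Gnai2 rose from 55.9 to 347 CPM (2.55 ± 0.18, edgeR adjusted p = 1.6e-07), and Rgs3, which speeds the switching off of G proteins, fell from 11.4 to 0.555 CPM (-4.47 ± 0.41, adjusted p = 1.54e-06). Efnb1, an ephrin, fell from 34.8 to 12.4 CPM (-1.57, adjusted p = 1.82e-05). Mif, another ligand reported for CXCR4, fell from 689 to 269 CPM (-1.43, adjusted p = 2.15e-06), but it has near-identical copies elsewhere in the genome among which reads could be split. Mif was also lower in vascular fibroblast-like cells (-1.97, adjusted p = 0.000241) and astrocyte-like cells (-1.67, adjusted p = 7.9e-06), and Gnai2 higher in both (1.30 and 1.01, adjusted p = 0.00296 and 0.00138). Of the effectors, Mapk3 rose (1.55, adjusted p = 6.7e-05), and Pak1 (-1.47, adjusted p = 1.82e-05) and Rhoa (-1.22, adjusted p = 6.31e-05) fell.

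**Figure D5:**
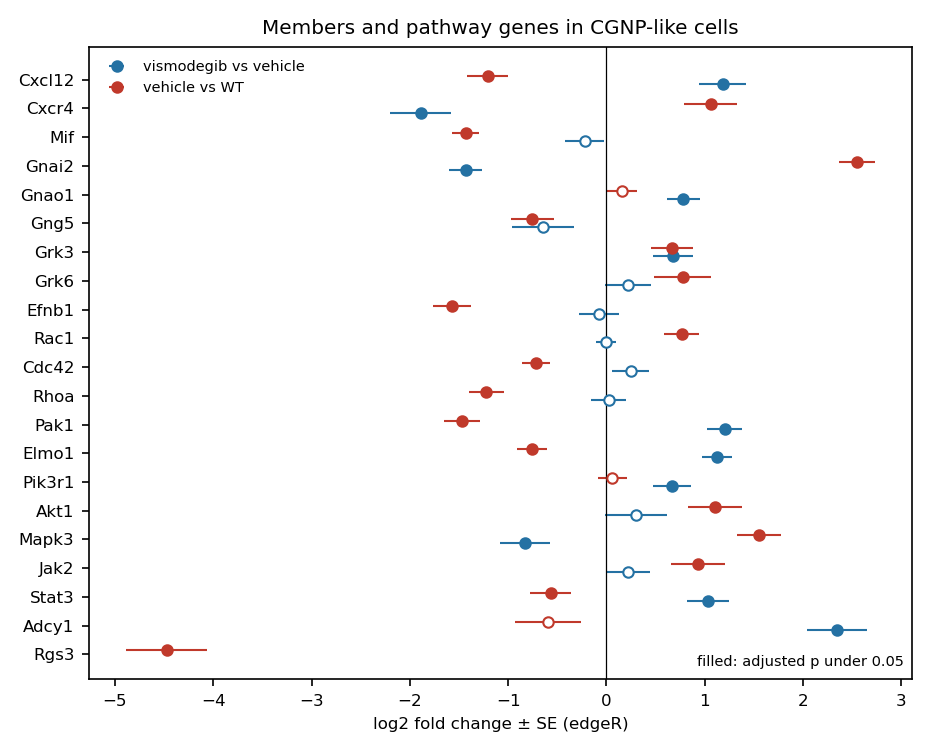
Log2 fold change in CGNP-like cells (points, with bars of 1 standard error) of Cxcl12, Cxcr4 and the pathway genes called in either comparison, for vismodegib against vehicle and for vehicle against WT, with filled points where the edgeR adjusted p was under 0.05. Cxcr4 and Gnai2 were lower in vismodegib than in vehicle and higher in vehicle than in WT, and Cxcl12 had the reverse pair of signs. Both comparisons share the vehicle tumors.

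The genes whose levels followed each member most closely over 34 means of a class in a group were ranked by Pearson's r among 10782 genes, as a description, since the means share libraries. For Cxcl12 these were Edn3 (r = 0.877), Adamts12 (0.862), Nid2 (0.846), Gpr124 (0.846) and Foxc1 (0.840). For Cxcr4 they were Ttc32 (0.775), Adamts1 (0.769), Nek7 (0.748), Nfkbia (0.748) and Lpar6 (0.745). For Ackr3 they were Abcc4 (0.827), Pgm5 (0.774), Slco1a4 (0.762), Slc38a3 (0.753) and Sgms1 (0.752). Between the members r was 0.545 for Cxcr4 and Ackr3, 0.237 for Cxcl12 and Ackr3, and 0.0248 for Cxcl12 and Cxcr4.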

How the data were processed

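Drop-seq libraries of 5 WT cerebella and 10 M-Smo tumors were analysed, 1 table an animal. The authors aligned reads to mm10 with added transgene sequences (STAR) and deposited UMI counts by gene and cell barcode, not normalized and before the study's cell filter, 2310474 to 17708677 UMIs a table. No annotation version was given in the sources used here.

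From these counts, cells with at least 500 UMIs and 500 genes were kept, with UMIs, genes and mitochondrial share at most 5 SD above the sample median. No doublet caller was run. At most 6 kept barcodes were shared by any pair of the 15 libraries. Tumor and WT cells were clustered separately (variable genes, principal components, Louvain at resolution 0.8; igraph 0.11.9, scipy 1.17.1). The members, the pathway list and hemoglobin genes took no part, the last chosen after seeing the data. Clusters were named from marker lists, so names are rebuilt and can differ from the study's. Both clusters of the neuron-like class in tumors scored higher on a node's markers than on neuron markers, the cluster led by Fkbp1b on Node C and the cluster led by Gabra6 on Node D.

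UMIs were summed by animal and class (at least 5 cells an animal, 3 animals a group) and tested by edgeR 4.0.16 (R 4.3.3; TMM, filterByExpr, quasi-likelihood), with Benjamini-Hochberg adjustment over all genes tested and calls at 0.05. Animals are the replicates. Shares, stage steps and fixed-mix levels were tested by 2-sided exact permutation. Thinned shares were adjusted over sets that held the CGNP-like class beside its own stages. Their adjusted p-values therefore rest partly on nested tests and on the number of ties at the smallest p. Floors (3 UMIs) cover counting error only. Pathway genes were named if called, at most 3 of largest change in each sublist and comparison. In data simulated for vismodegib against vehicle at a fixed dispersion of 0.05, 86% of 2-fold changes were recovered in CGNP-like cells (12413 genes) and 89% in vascular fibroblast-like cells (372 genes). Of the calls there, 6.53% and 1.05% were false. The members' own spread between animals was not simulated. Alternatives were other size factors, no filter, DESeq2 1.42.0, a replicate block, a serial-number covariate, other cell limits, resolution 1.4, leaving out each animal and, added after seeing the data, a fixed mix of clusters. The members and lists were chosen with earlier results of these data known.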

Additional observations from a re-analysis of the deposited data

Results flagged for a closer look

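In 57 groups of 4 or 5 animals tested for a value far from the others, 6 had one, and chance flags about 1 in 20 such groups. Cxcl12 in Node D-like cells of vehicle 1 was 50.03 CPM (6 UMIs in 116 cells), below the next tumor at 101 CPM. Ackr3 in Node D-like cells of vismodegib 1 was 6.61 CPM, from 2 UMIs. Ackr3 in astrocyte-like cells of vismodegib 1 was 81.3 CPM (7 UMIs in 35 cells), above the next tumor at 35.5 CPM. Cxcr4 was 0 in the 73 GABAergic progenitor-like cells of WT 2, where the next animal had 17.2 CPM. Cxcl12 in endothelial-like cells of WT 1 was 404 CPM (19 UMIs in 11 cells), above the next animal at 94.6 CPM. Ackr3 was 0 in the 6 endothelial-like cells of vehicle 4, where the next tumor had 137 CPM.

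Members were also counted outside the classes compared. Barcodes under 500 UMIs held 198 Cxcl12, 20 Cxcr4 and 7 Ackr3 UMIs in WT (5831 barcodes), 11 Cxcl12 and 11 Cxcr4 UMIs in vehicle (1869 barcodes), and 15 Cxcl12 and 2 Cxcr4 UMIs in vismodegib (1631 barcodes). Cxcl12 made up 104 CPM of these barcodes in WT, 35.6 in vehicle and 51.0 in vismodegib. A tumor cluster that received no name, led by Ttr and muscle genes such as Tnnc2 and Mylpf, held 19 Cxcl12 and 23 Cxcr4 UMIs in 170 vehicle cells and 17 Cxcl12 and 3 Cxcr4 UMIs in 160 vismodegib cells.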

How the results depend on the processing

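Over 157 results and 2452 alternative values, 2168 were unchanged and 23 changed sign, none of them past the threshold in either setting. Unchanged means the same direction and side of the threshold or, for a count of genes called, a count near the main one. The unchanged values included 1198 of the 1298 for pathway genes, which entered only if called in the main setting. In CGNP-like cells Cxcr4 and Cxcl12 were called in 18 of 18 alternatives for vismodegib against vehicle and 17 of 17 for vehicle against WT, and Cxcr4 in Node B-like cells in 18 of 18 (vismodegib). Of the changes given here, the cause was not tested.

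Without the count filter, genes called for vismodegib were 396, 472, 154, 48, 7 and 24 for Node A-like, Node B-like, Node C-like, Node D-like, endothelial-like and fibroblast-like cells, against 233, 305, 22, 3, 0 and 5 by edgeR with it (35 of the endothelial-like genes had an unadjusted p under 0.05). Against WT they were 5352, 5936, 3866, 978 and 513 in Node A-like, Node B-like, Node C-like, astrocyte-like and fibroblast-like cells. DESeq2 called 530, 77, 5, 3 and 12 for vismodegib in Node B-like, Node C-like, Node D-like, endothelial-like and fibroblast-like cells. The serial-number covariate gave 495, 83 and 10 in Node B-like, Node C-like and Node D-like cells. Resolution 1.4 gave 50 and 9 in Node C-like and Node D-like cells, and the 4 SD limit 9 in fibroblast-like cells.

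Same-numbered samples correlated at -0.147 to 0.391 (vismodegib with vehicle) and -0.186 to 0.00714 (vehicle with WT), so the numbers were not taken as pairs (same-numbered tumors have adjacent serial numbers in their titles, which the labels do not tie to a litter or day), and only vismodegib 4 and 5 matched their own number best. With the replicate block, calls for vismodegib were 68 in Node C-like, 17 in Node D-like and 0 in fibroblast-like cells. Under the block Cxcr4 had log2 fold changes of -1.14 in Node A-like cells for vismodegib (adjusted p = 0.0508) and 0.73 against WT (0.0418), and Cxcl12 -0.57 in Node C-like cells against WT (0.0807), and it changed no other call of a member.

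Against WT, Cxcr4 passed without the filter in Node A-like (0.90) and Node B-like cells (0.80), and in the latter at resolution 1.4 (0.83). Cxcl12 did not pass at 1000 UMIs a cell in Node B-like cells (-0.89), nor in Node C-like cells without the filter (-0.43), by DESeq2 (-0.55), at 1000 UMIs (-0.46) or at resolution 1.4 (-0.58). Unthinned shares differed without passing by 4.85 percentage points for Cxcl12 in CGNP-like cells, by -7.98, -8.17, -7.63 and 8.50 for Cxcr4 in CGNP-like, Node A-like, Node B-like and astrocyte-like cells, and by -2.20 for Ackr3 in oligodendrocyte-like cells. The Cxcl12 step into Node D-like cells passed at resolution 1.4 (32.6 CPM) and on log2(CPM + 10) (0.36). At resolution 1.4 the Node B-like share of Cxcl12 UMIs rose against WT by 5.24 points without passing.

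Leaving out 1 animal gave 189 to 304, 6 to 38, 0 to 6, 0 to 1 and 0 to 17 calls for vismodegib in Node B-like, Node C-like, Node D-like, endothelial-like and fibroblast-like cells. It gave Cxcr4 in Node A-like cells -1.35 to -0.96 (vismodegib) and 0.45 to 0.94 (WT), Cxcr4 against WT in Node B-like cells 0.33 to 0.72 and in astrocyte-like cells -1.66 to -1.24, and Cxcl12 against WT -1.50 to -1.01 in Node B-like and -0.64 to -0.46 in Node C-like cells. Shares of Cxcl12 UMIs against WT ranged over 1.22 to 2.66, 7.34 to 9.84, 10.4 to 14.3 and -32.2 to -27.0 points in Node A-like, Node B-like, Node C-like and fibroblast-like cells. Thinned shares ranged over 1.15 to 1.68 (Cxcl12, CGNP-like), -2.48 to -1.80, -2.03 to -1.30, -2.97 to -1.91 and 2.07 to 2.79 (Cxcr4 in CGNP-like, Node A-like, Node B-like and astrocyte-like) and -1.09 to -0.774 points (Ackr3, oligodendrocyte-like), and these adjusted calls were lost without any of the 10 tumors for Cxcl12 and without any but vehicle 3 for the others, while the groups overlapped in none of these leave-outs. Stage steps ranged over 17.3 to 26.4 CPM (Cxcl12 into Node D-like) and 10.7 to 14.7 CPM (Cxcr4 into Node B-like cells).

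The sign changes were, with unthinned shares, 0.251 points for Cxcl12 in Node B-like cells (vismodegib), and 0.594 and 0.0694 against WT in Node D-like and fibroblast-like cells. At resolution 1.4 the Cxcl12 step into Node B-like was 0.303 CPM and the Ackr3 step into Node C-like cells -0.0268 CPM, and the Cxcr4 difference between stages was 0.167 at a pseudocount of 1 CPM. Leaving out 1 animal, Cxcl12 against WT in fibroblast-like cells ranged over -0.299 to 0.0134 (log2) and its step into Node B-like cells over -1.82 to 1.30 CPM. Its share of UMIs ranged over -0.176 to 3.79 points (Node D-like, WT) and -0.487 to 2.94 (endothelial-like, vismodegib). Thinned shares ranged over -0.130 to 0.697 points for Ackr3 in oligodendrocyte-like cells (WT), and for vismodegib over -0.170 to 0.00389 and -0.883 to 0.103 for Cxcl12 in Node B-like and Node D-like and -0.167 to 1.36 for Cxcr4 in microglia-like cells. Few UMIs limited Ackr3, which passed the count filter in no class.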

Other observations

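Cxcr4 was compared in Node A-like and Node B-like cells with and without a UMI of Gli1, a target gene and transcription factor of the SHH pathway, as values without a test. In vismodegib tumors Cxcr4 was 46.5 ± 20.3 CPM in cells with a Gli1 UMI and 24.6 ± 8.48 CPM in cells without (SD, n = 5), higher with Gli1 in 5 of 5 tumors. In vehicle tumors it was 81.2 ± 31.3 and 78.2 ± 36.1 CPM (higher in 3 of 5), and in WT 55.1 ± 20.7 and 40.0 ± 9.86 CPM (higher in 4 of 5). Cells with a Gli1 UMI were not matched for depth to those without.

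Ligand and receptor were found together in few cells. A UMI of both Cxcl12 and Cxcr4 was present in 41 CGNP-like cells of vehicle, 12 of vismodegib and 12 of WT, where unrelated detection would give 62.3, 33.7 and 19.6. Within Node B-like cells of vehicle the count was 24 beside 21.3, and within Node A-like cells 14 beside 12.2. Cxcr4 and Ackr3 were found together in 8 astrocyte-like cells of WT beside 7.20 and in 7 of vismodegib beside 6.63.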
